A study of Homo sapiens with 12 samples.

Results

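The PARP and tankyrase family was followed at the transcript level in A549 cells with and without PARP3. The members were 10 genes of the ADP-ribosyltransferase family, taken by symbol from a table of 25365 gene names: PARP1, PARP2, PARP3, PARP4, PARP9, PARP10, PARP12, PARP14, TNKS and TNKS2. A549 is a human lung adenocarcinoma line. Wild-type cells and PARP3-/- cells were given vehicle (DMSO) or 1 μM pyridostatin, a small molecule that binds and stabilizes G-quadruplex (G4) DNA, for 24 h. RNA-seq was done on 3 biological replicates of each of the 4 groups, 12 libraries in all. The PARP3-/- cells were made by transient expression of Cas9 with a pair of guides in the first exon of PARP3 and were cloned by serial dilution. The number of clones behind the replicates was not given in the sources used here, so a difference between the genotypes cannot be told apart from a difference between clones. The p-values measure the spread between these cultures.

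These enzymes use NAD+ to attach ADP-ribose to proteins. PARP1 and PARP2 sense DNA breaks and build chains of ADP-ribose that call in repair proteins, and PARP3 acts at double-strand breaks and adds single units. The tankyrases TNKS and TNKS2 mark proteins such as axin for degradation and act at telomeres, PARP4 is a protein of the vault particle, and PARP9, PARP10, PARP12 and PARP14 are known as genes induced by interferon. The comparison asked whether transcripts of relatives were raised where PARP3 was deleted, before and after G4 stabilization.

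Expression was deposited as FPKM, the fragments of a transcript scaled to its length and to the depth of the library, so that levels can be compared between genes. A single limma fit of log2(FPKM + 1) to the 4 groups gave the differences for 11881 genes whose average over the libraries reached 1 FPKM. A gene was called at a Benjamini-Hochberg adjusted p under 0.05 over all of these. The added 1 makes fold changes of weakly expressed genes too small. Of the 10 members, 9 passed the filter, and PARP10 did not. Estimated depth ran from 21600000 to 31300000 reads per library. It was taken from weakly expressed genes with a single transcript, whose most common product of FPKM and transcript length was set as a single read. Wild-type vehicle replicate 2 stood apart, with the largest distance from the other replicates of its group (root mean square difference 0.501 on the log2 scale, against 0.395 to 0.451 in the other 11 libraries). It was the lowest of the 12 libraries for 6 of the 10 members. All 6 epithelial markers examined reached 1 FPKM in at least 1 library of each group (sums of 6912 to 8630 FPKM). Most of the sum came from KRT8, KRT18 and KRT7 (means of 3036, 2653 and 1677 FPKM), whereas EPCAM ran from 0.879 to 2.36 FPKM. Of 8 alveolar type II markers 1, ABCA3, reached 1 FPKM, and the surfactant gene SFTPB was at 0 in every library. With genotype 1 epithelial marker was higher and 3 were lower over both treatments, where 19.1% of all tested genes were called. KRT19 was higher in the libraries labelled PARP3-/- (log2 fold change 0.85, adjusted p = 6.58e-07 from limma). CDH1 (−0.47, adjusted p = 2.29e-05), EPCAM (−0.50, adjusted p = 6.96e-05) and KRT18 (−0.24, adjusted p = 0.0128) were lower. Of 8 markers of other cell types, CD68 and COL1A1 averaged at least 1 FPKM over the 12 libraries. COL1A1 stayed below 1 FPKM in wild-type libraries (at most 0.993) and ran from 1.21 to 1.63 FPKM in PARP3-/- libraries. Both genes were higher in PARP3-/- libraries over both treatments, 2 of 2 tested against 19.1% of all tested genes. The log2 fold changes were 0.40 for CD68 (adjusted p = 8.38e-05 from limma) and 0.41 for COL1A1 (adjusted p = 0.000665). The list of 8 summed to 14.7 to 16.9 FPKM in wild-type and 20.0 to 22.8 FPKM in PARP3-/- libraries. CD3E was at 0, and PTPRC, VWF and COL1A2 were below 0.01 FPKM. The part of these markers in the results was not tested. A bulk level does not show whether more cells expressed a gene or each cell held more of it.

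The promoters of the interferon-type members were examined because PARP12 and PARP10, of that kind, had the largest genotype differences over both treatments among the 9 members other than PARP3. RefSeq promoter windows (GRCh38.p14, 250 bases before to 50 bases after each start) were given for 7 of the 10 members, and none was used here for PARP4, PARP10 and TNKS. The motif GAAANNGAAA, which resembles the element bound by interferon-activated factors, was searched on both strands. It was present in the windows of PARP9, PARP12 and PARP14 and absent from those of PARP1, PARP2, PARP3 and TNKS2. Across all 35116 windows, 3.57% held it. Genes were counted as holding a motif if any of their windows did, and some genes had 2 or 3 windows. The stretches of 60 bases around the motif are printed 5′ to 3′ on the strand of the gene, with the motif in capitals.
PARP9 (chr3:122564312-122564371, minus strand, motif 41 to 32 bases before the start): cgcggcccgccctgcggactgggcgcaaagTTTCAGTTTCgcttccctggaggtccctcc
PARP14 (chr3:122680779-122680838, plus strand, motif 29 to 20 bases before the start): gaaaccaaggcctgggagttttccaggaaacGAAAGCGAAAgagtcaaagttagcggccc
PARP12 (chr7:140062952-140063011, minus strand, motif 10 to 1 bases before the start): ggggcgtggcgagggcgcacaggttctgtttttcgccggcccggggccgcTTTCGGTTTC
In PARP14 the motif lies on the strand of the gene, and in PARP9 and PARP12 on the other strand. DTX3L, which starts next to PARP9 in the opposite direction and encodes its partner ubiquitin ligase, holds the same copy of the motif as PARP9. Of 12 other interferon-stimulated genes with a window, 7 held the motif, and of 7 PARP genes outside the 10 members, 0 did. STAT2, IRF1, OAS1 and UBE2L6, called between the genotypes over both treatments, did not hold it. ISG15, IFI6 and IFIT3 held it and were not called. PARP12 and DTX3L held it and were called, while PARP9 and PARP14 held it and were not called. Whether the motif goes with a genotype difference was not tested. A G4 motif (4 runs of at least 3 G with loops of 1 to 7 bases, both strands) was present in 25.0% of all windows. Of the 7 members with a window, 1 held it, PARP9, which had 2 windows. A match to letters describes the window and does not show that a factor binds there.

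The family was led by the repair enzyme PARP1, with a mean of 61.0 FPKM over the 12 libraries, followed by PARP2 at 30.1 FPKM, PARP4 at 24.6 FPKM and TNKS2 at 12.8 FPKM. The ranges of these 4 genes over the 12 libraries did not overlap one another. PARP14 (7.57 FPKM), PARP9 (5.67 FPKM), PARP12 (5.66 FPKM), PARP3 (4.13 FPKM) and TNKS (3.93 FPKM) formed a middle group in which each gene's range overlapped that of its neighbour. PARP10 was far below them at 0.513 FPKM. PARP3 was thus the eighth of the 10 members by level. The 10 members together amounted to 154 ± 7.72 FPKM in wild-type cells and 160 ± 1.99 FPKM in PARP3-/- cells with vehicle, and to 155 ± 3.53 and 155 ± 1.09 FPKM with pyridostatin (SD, n = 3 each). PARP1 alone made up 37.2% to 40.3% of this sum in the 4 groups.

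**Figure D1:**
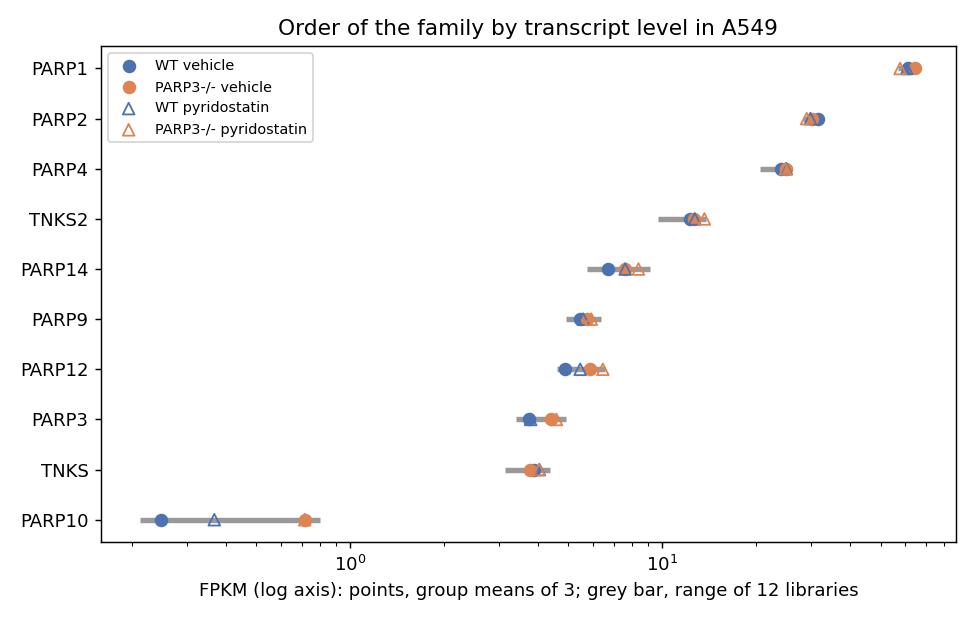
Levels of the 10 PARP and tankyrase genes in FPKM on a log axis, with group means of 3 libraries as points and the range of all 12 libraries as a grey bar. PARP1 lies highest at a mean of 61.0 FPKM, and PARP10 lies below 1 FPKM with wild-type means left of the PARP3-/- means.

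PARP3, the deleted gene, was examined before its relatives. With vehicle it measured 3.83, 3.40 and 3.96 FPKM in wild-type libraries and 4.92, 4.07 and 4.25 FPKM in the libraries labelled PARP3-/-. Under pyridostatin its levels were 3.74, 3.57 and 4.05 FPKM in wild type and 4.73, 4.71 and 4.30 FPKM in PARP3-/-. Within each treatment every PARP3-/- library lay above every wild-type library, so the transcript was not reduced. Over both treatments the log2 fold change was 0.21 (standard error 0.0506, adjusted p = 0.0154 from limma) and was called in all 19 alternatives in which it could be fitted. An exact two-sided permutation test within treatments gave a difference of 0.738 FPKM and p = 0.005, the smallest p it allows. The FPKM value sums the whole gene and does not show whether the exon cut by the guides was present, so directions between the genotypes are given by the labels. The study itself showed the deletion in the first exon by Sanger sequencing. It also gave immunoblots of PARP3-/- A549 cells in which PARP3 was re-expressed. By the smallest root mean square difference between centred log2 values over the 12 libraries, the 5 genes whose pattern was most like that of PARP3 were SH2B3 (0.0529), ARHGEF28 (0.0539), IL11RA (0.0542), PLCG1 (0.0550) and CES4A (0.0581), and no other member was among them.

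With vehicle, 0 of the 9 tested members differed between the genotypes, where 9.41% of all tested genes did. With pyridostatin it was again 0 of 9, against 10.9% of all genes. Before adjustment, 3 members with vehicle and 2 with pyridostatin had a limma p under 0.05, as did 2564 and 2855 of the 11881 genes. Over both treatments together 2 members were called, PARP12 and PARP3 itself, both higher in PARP3-/- libraries, against 19.1% of all genes. The median log2 fold change of the 9 members over both treatments was 0.07, and that of all genes was 0.01. The largest absolute log2 fold change of any tested member in any comparison was 0.22 on the log2(FPKM + 1) scale. The study set its threshold of 1 on DESeq2 fold changes of counts, which is not the same scale. PARP10, below the filter, was not among the tested members. Counted by ranges, 4 of 9 members were higher without overlap with vehicle (PARP1, PARP3, PARP12 and PARP14), where 24.2% of all genes did not overlap in one direction or the other. With pyridostatin 3 were higher (PARP3, PARP9 and PARP12) and 1 was lower (PARP1), where 35.2% of all genes did not overlap. Among all genes called over both treatments 63.7% were higher in PARP3-/- libraries, and this share was 45.7% after the library medians were made equal and 52.2% after quantile normalization. PARP12 and PARP3 stayed higher and called under both of these scalings.

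**Figure D2:**
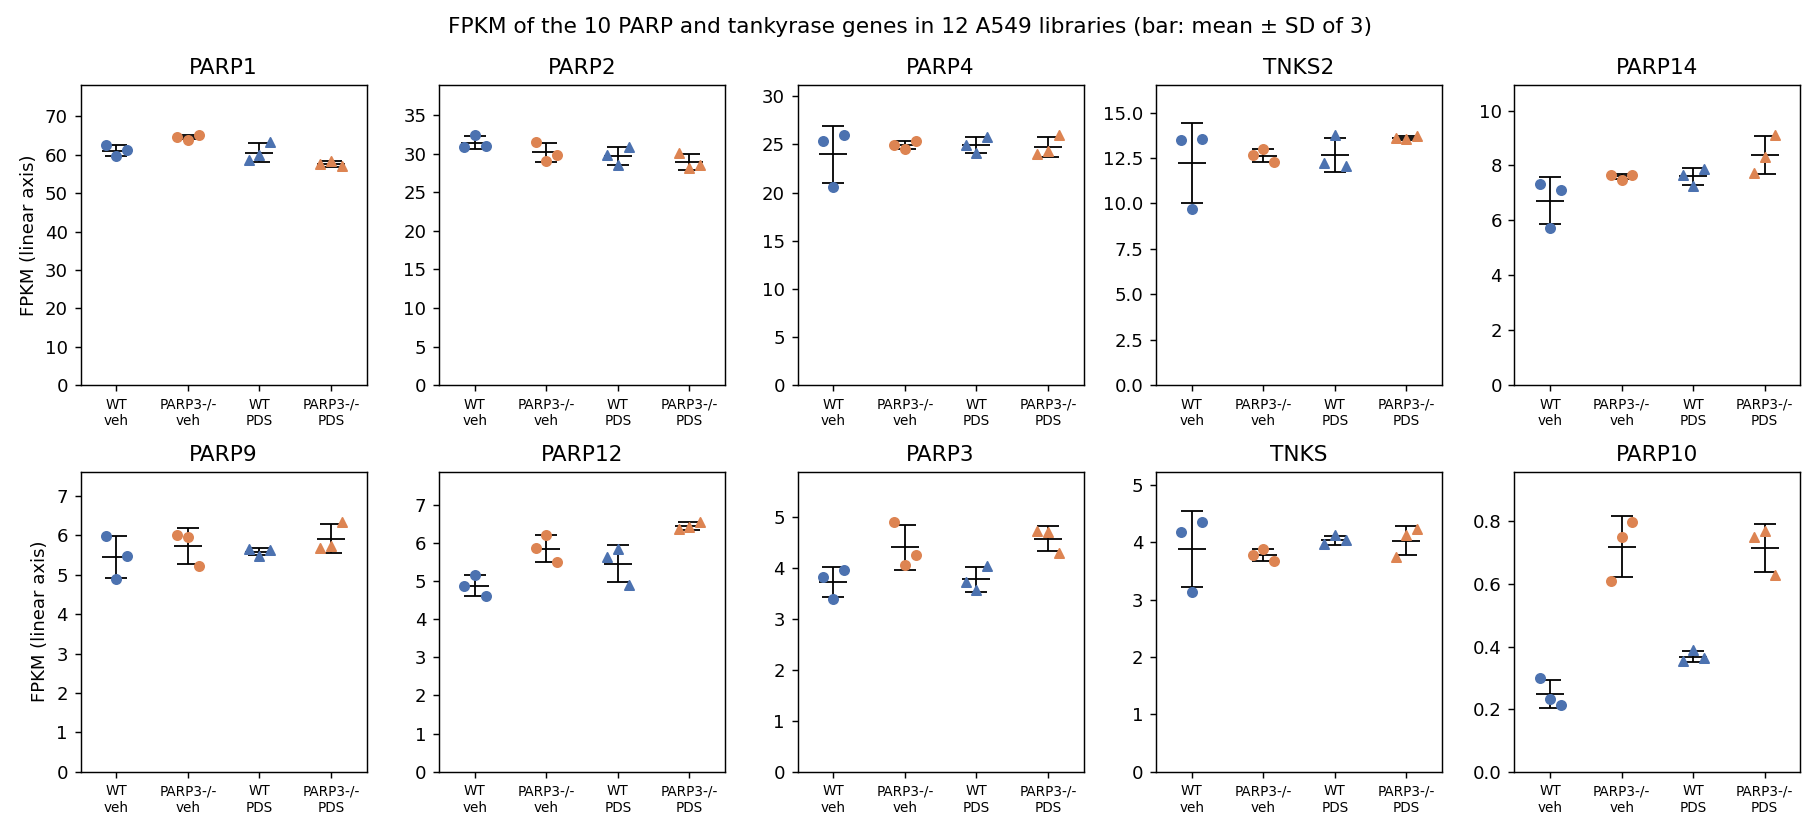
FPKM of each of the 10 genes in the 12 libraries, on linear axes that start at 0, with circles for vehicle (veh) and triangles for pyridostatin (PDS), wild type (WT) in blue and PARP3-/- in orange, and bars for the mean and SD of 3. The PARP3-/- libraries lie above the wild-type libraries in both treatments for PARP3, PARP12 and PARP10.

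PARP1, the main break sensor, did not show one direction between the genotypes. With vehicle it measured 62.4, 59.5 and 61.3 FPKM in wild-type and 64.7, 64.0 and 65.2 FPKM in PARP3-/- libraries. With the ligand, levels of 58.6, 59.9 and 63.3 FPKM in wild-type and of 57.6, 58.5 and 57.0 FPKM in PARP3-/- libraries were measured. The PARP3-/- libraries were thus above the wild-type libraries with vehicle and just below them with pyridostatin, without overlap in either case. The log2 fold changes were 0.08 with vehicle (95% interval 0.0013 to 0.157, adjusted p = 0.224 from limma) and −0.07 with pyridostatin (95% interval −0.15 to 0.0091, adjusted p = 0.270), and neither was called. Over both treatments the fold change was 0.01, with a 95% interval of −0.05 to 0.06 (adjusted p = 0.926).

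PARP1 was the member called with pyridostatin, though not under every alternative. In PARP3-/- cells it fell by 0.16 on the log2 scale (standard error 0.0353, adjusted p = 0.0258 from limma), 1 of 9 members called against 5.56% of all genes. In wild-type cells the change was −0.01 (adjusted p = 0.879), 0 members were called, and 4.17% of all genes were. The difference between these changes, the interaction, was −0.15 (standard error 0.0499, unadjusted p = 0.0132), with an adjusted p of 0.999. By this adjustment 0% of all genes had an interaction, and 521 had an unadjusted p under 0.05. Across both genotypes PARP1 fell by 0.09 (adjusted p = 0.0431), 1 member called against 13.9% of all genes. The fall in PARP3-/- cells was no longer called when any 1 of the 6 PARP3-/- libraries was left out (adjusted p of 0.0625 to 0.108) or after quantile normalization (0.142). The fall across both genotypes was lost in 14 of 20 alternatives. PARP12, at an adjusted p of 0.0803 for pyridostatin over both genotypes, was called as higher in 3 of 20 alternatives, with the replicate block in place of PARP1 (0.0492) and without wild-type vehicle replicate 2 (0.0472) or wild-type pyridostatin replicate 3 (0.0286) beside it.

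PARP2, which shares break sensing with PARP1, did not separate the genotypes. It ran from 28.2 to 32.5 FPKM over all 12 libraries, with group means of 31.5 ± 0.871 and 30.2 ± 1.25 FPKM with vehicle and 29.8 ± 1.18 and 28.97 ± 1.05 FPKM with pyridostatin in wild-type and PARP3-/- cells (SD, n = 3 each). The genotypes overlapped in both treatments. Over both treatments the log2 fold change between genotypes was −0.05, with a 95% interval of −0.12 to 0.02 (adjusted p = 0.343 from limma).

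PARP12, an interferon-induced enzyme that adds single ADP-ribose units and restricts viruses, was the only tested member besides PARP3 called between the genotypes over both treatments. With vehicle it measured 4.87, 5.15 and 4.60 FPKM in wild-type and 5.86, 6.20 and 5.49 FPKM in PARP3-/- libraries. Under pyridostatin PARP12 was at 5.63, 5.83 and 4.90 FPKM in wild-type and 6.36, 6.42 and 6.55 FPKM in PARP3-/- libraries. All PARP3-/- libraries lay above the wild-type libraries of the same treatment. The log2 fold change was 0.22 with vehicle (adjusted p = 0.0503 from limma) and 0.21 with pyridostatin (adjusted p = 0.0571), each just outside the threshold. Over both treatments it was 0.21 (standard error 0.0439, adjusted p = 0.00573), with 6 of 6 PARP3-/- libraries above the wild-type libraries of their treatment, and it was called in all 20 alternatives. The comparison with vehicle was called without wild-type vehicle replicate 2 (0.0310), without wild-type pyridostatin replicate 2 (0.0497) or without wild-type pyridostatin replicate 3 (0.0260). The comparison with pyridostatin was called without wild-type vehicle replicate 2 (0.0352) or without wild-type pyridostatin replicate 2 (0.0429). With the replicate number as a block, the adjusted p was 0.0283 with vehicle and 0.0334 with pyridostatin.

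PARP14, a large enzyme with macrodomains that bind ADP-ribose, measured 7.32, 5.74 and 7.10 FPKM in wild-type and 7.65, 7.48 and 7.67 FPKM in PARP3-/- libraries with vehicle. With pyridostatin it measured 7.67, 7.26 and 7.87 FPKM in wild-type and 7.71, 8.32 and 9.11 FPKM in PARP3-/- libraries. The genotypes separated with vehicle and overlapped with pyridostatin, and the low wild-type library was the replicate 2 that stood apart. The log2 fold change between genotypes over both treatments was 0.14 (adjusted p = 0.105 from limma), and with vehicle it was 0.16 (adjusted p = 0.268), or 0.07 without that library. PARP9, the neighbour of DTX3L, was at 5.45 ± 0.543 and 5.73 ± 0.453 FPKM with vehicle and 5.58 ± 0.0881 and 5.92 ± 0.373 FPKM with pyridostatin in wild-type and PARP3-/- cells (SD, n = 3 each). PARP9 was called in none of the comparisons. Its partner DTX3L, by contrast, was higher in PARP3-/- cells over both treatments (log2 fold change 0.18, adjusted p = 0.00896 from limma, called in all 20 alternatives), with means of 5.67 and 6.52 FPKM with vehicle and 6.20 and 7.13 FPKM with pyridostatin. The difference between the changes of PARP9 and DTX3L was not tested. PARP9 and DTX3L overlap in RefSeq, and the strand setting of the counting was not given in the sources used here, so reads could be shared between them.

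PARP10, a further enzyme that adds single ADP-ribose units, had the largest ratio between genotypes of the family, at a level below the filter. With vehicle it measured 0.300, 0.232 and 0.213 FPKM in wild-type and 0.609, 0.750 and 0.799 FPKM in PARP3-/- libraries, a ratio of means of 2.90. With pyridostatin it measured 0.352, 0.388 and 0.362 FPKM in wild-type and 0.750, 0.770 and 0.628 FPKM in PARP3-/- libraries, a ratio of 1.95. Every PARP3-/- library lay above every wild-type library, and among wild-type libraries those with pyridostatin lay above those with vehicle. These values stand for few reads, approximately 17 to 26 per library in wild type with vehicle and 60 to 63 in PARP3-/- with vehicle, and 32 to 42 and 55 to 68 with pyridostatin. In an exact two-sided permutation test the difference over both treatments was 0.410 FPKM with p = 0.005, the smallest p it allows, and each treatment alone gave p = 0.1, the smallest that 3 against 3 allow. When limma was run without the filter, the log2 fold change was 0.46 with vehicle (adjusted p = 0.000768, 4.71% of all names called), 0.33 with pyridostatin (adjusted p = 0.00464, 5.17% called) and 0.39 over both (adjusted p = 0.000122, 9.47% called). With a pseudocount of 0.1 in place of 1 these fold changes were 1.24, 0.80 and 1.02, which shows how far the scale decides the size at this level. The permutation tests and the fit with a pseudocount of 0.1 were added after the values of PARP10 were seen.

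PARP10 overlaps GRINA and SPATC1 in RefSeq, so its few reads could include reads of GRINA, a far more abundant gene. GRINA was at 70.9 ± 7.21 and 69.7 ± 3.62 FPKM with vehicle in wild-type and PARP3-/- cells, and at 71.9 ± 4.92 and 80.6 ± 5.98 FPKM with pyridostatin (SD, n = 3 each). The log2 fold change of GRINA between genotypes was −0.02 with vehicle (adjusted p = 0.927 from limma) and 0.16 with pyridostatin (adjusted p = 0.253), and its part in the PARP10 values was not tested. SPATC1 was at 0 in every library. PLEC, the neighbouring gene of the cytoskeletal linker plectin, ran from 44.2 to 72.02 FPKM and was higher with pyridostatin over both genotypes (0.30, adjusted p = 0.0102, called in all 20 alternatives) and in PARP3-/- cells (0.36, adjusted p = 0.0399, lost in 11 of 21). Between genotypes PLEC was not called (0.11 over both treatments, adjusted p = 0.289).

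TNKS, TNKS2 and PARP4 were called in no comparison. Their fold changes, PARP9 included, ran from −0.07 to 0.10 on the log2 scale, with a smallest adjusted p of 0.416. TNKS lay between 3.13 and 4.36 FPKM, TNKS2 between 9.71 and 13.8 FPKM and PARP4 between 20.5 and 25.98 FPKM, and all 3 had their lowest value in wild-type vehicle replicate 2. In PARP3-/- cells the TNKS2 libraries with pyridostatin (13.6, 13.5 and 13.7 FPKM) lay above those with vehicle (12.7, 12.98 and 12.3 FPKM). For the genotype comparison over both treatments the 95% intervals were −0.15 to 0.12 for TNKS, −0.08 to 0.23 for TNKS2 and −0.09 to 0.14 for PARP4. By ranges, 0 of 9 members separated with pyridostatin in wild-type cells, against 23.1% of all genes. In PARP3-/- cells 3 were higher without overlap (TNKS2, PARP12 and PARP14) and PARP1 was lower, where 32.3% of all genes did not overlap.

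**Figure D3:**
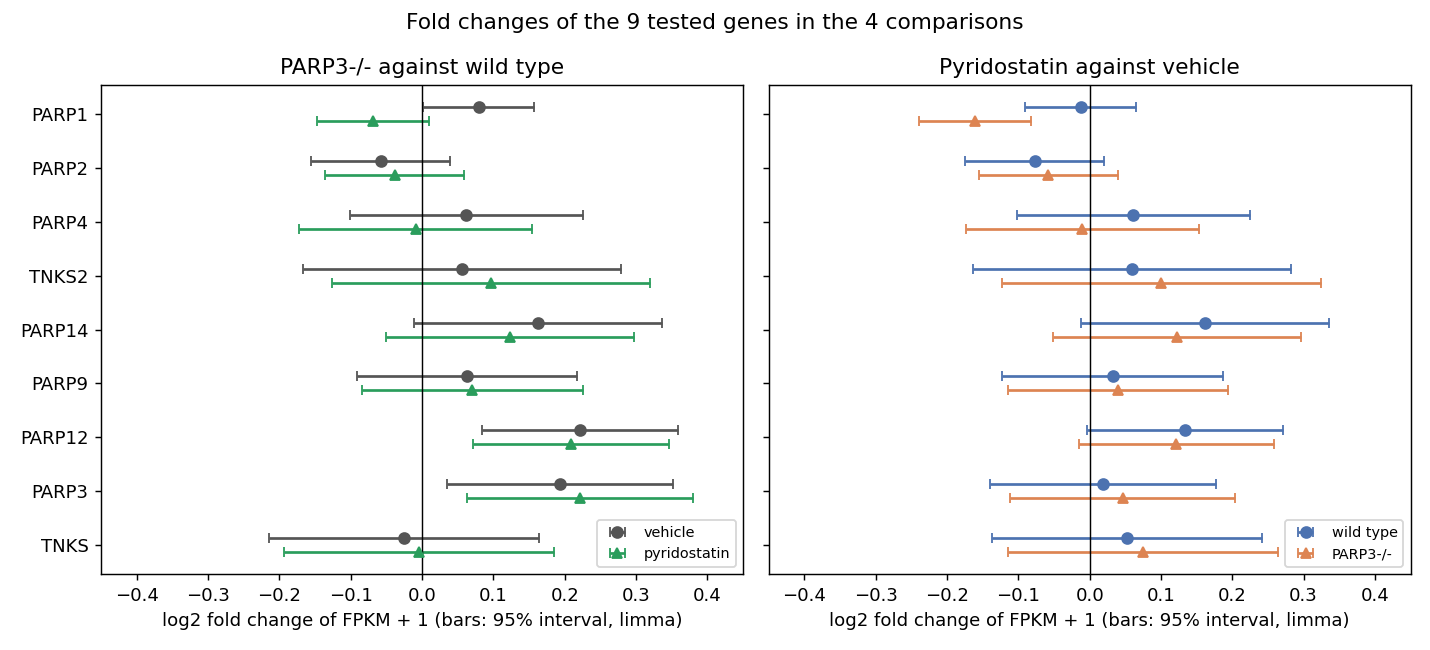
Log2 fold changes of FPKM + 1 with 95% intervals from limma for the 9 tested members, on the left PARP3-/- against wild type with vehicle (grey circles) and pyridostatin (green triangles), on the right pyridostatin against vehicle in wild type (blue circles) and PARP3-/- (orange triangles). PARP12 and PARP3 lie right of 0 in both genotype comparisons, and PARP1 lies left of 0 with pyridostatin in PARP3-/- cells.

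Among 7 PARP genes outside the 10 members, 4 were tested, and 2 were higher in PARP3-/- cells over both treatments, where 19.1% of all genes were called. TIPARP, which adds single ADP-ribose units and is induced by the aryl hydrocarbon receptor, measured 9.49, 8.05 and 9.24 FPKM in wild-type and 12.2, 12.99 and 12.6 FPKM in PARP3-/- libraries with vehicle. Under pyridostatin TIPARP was at 9.34, 9.69 and 9.13 FPKM in wild-type and 12.1, 12.9 and 13.7 FPKM in PARP3-/- libraries. Its genotypes were well apart in both treatments. Its log2 fold change was 0.46 with vehicle (adjusted p = 0.000863 from limma) and 0.42 with pyridostatin (adjusted p = 0.00139), and both calls were kept in all 21 alternatives. PARP16, an enzyme of the endoplasmic reticulum, was called with pyridostatin (log2 fold change 0.24, adjusted p = 0.0260) and over both treatments (0.15, adjusted p = 0.0288). These calls were lost in 6 of 21 and 8 of 20 alternatives. With pyridostatin 0 of these 4 genes were called in either genotype. Of all genes, 4.17% were called in wild-type and 5.56% in PARP3-/- cells.

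Of 6 tested genes that remove ADP-ribose, 0 differed with vehicle and 1 with pyridostatin, OARD1, a hydrolase of mono-ADP-ribose (log2 fold change −0.20, adjusted p = 0.0346 from limma), against 9.41% and 10.9% of all genes. OARD1 also fell with pyridostatin in PARP3-/- cells, by 0.24 (adjusted p = 0.0269), 1 of 6 called against 5.56% of all genes. These 2 calls of OARD1 were lost in 11 and in 7 of 21 alternatives. Of 7 tested partners and readers of ADP-ribose, 1 was higher (DTX3L) and 1 lower over both treatments, the histone H2AFY, macroH2A1 (−0.09, adjusted p = 0.0164), against 19.1% of all genes. XRCC1, the scaffold of single-strand break repair recruited by PARP1, fell with pyridostatin in PARP3-/- cells by 0.16 (adjusted p = 0.0168, lost in 5 of 21 alternatives). Over both genotypes it fell by 0.11 (adjusted p = 0.00909, called in all 20 alternatives). In each of these 2 comparisons 1 of the 7 was called, against 5.56% and 13.9% of all genes.

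For NAD+, the substrate of these enzymes, 5 synthesis genes were tested, and 1 was higher and 1 lower in PARP3-/- cells over both treatments, against 19.1% of all genes called. NAMPT, the rate-limiting enzyme of NAD+ salvage, measured 52.6, 44.0 and 50.7 FPKM in wild-type and 33.0, 34.8 and 32.3 FPKM in PARP3-/- libraries with vehicle. With pyridostatin it measured 46.4, 48.5 and 42.9 FPKM in wild-type and 32.9, 32.0 and 31.7 FPKM in PARP3-/- libraries. All PARP3-/- libraries were far below the wild-type libraries. Over both treatments NAMPT fell by 0.52 on the log2 scale in PARP3-/- libraries (standard error 0.0464, adjusted p = 2.03e-05 from limma, called in all 20 alternatives). NMRK1, the nicotinamide riboside kinase, was higher in PARP3-/- cells (0.31, adjusted p = 0.00732) and lower with pyridostatin over both genotypes (−0.37, adjusted p = 0.00446). NADSYN1, the synthetase of the last step to NAD+, was higher with pyridostatin over both genotypes (0.15, adjusted p = 0.0179, lost in 3 of 20 alternatives), so that 2 of the 5 were called, against 13.9% of all genes.

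Of 9 tested tankyrase partners, 1 was higher and 2 were lower in PARP3-/- cells over both treatments, and 3 were higher with pyridostatin over both genotypes, against 19.1% and 13.9% of all genes called. AXIN2, a feedback inhibitor of Wnt signalling whose protein is turned over through tankyrase, had means of 2.14 and 1.37 FPKM with vehicle and 3.18 and 1.73 FPKM with pyridostatin in wild-type and PARP3-/- cells. Its log2 fold change was −0.51 between genotypes (adjusted p = 0.000146 from limma) and 0.31 for pyridostatin over both genotypes (adjusted p = 0.00703). AMOTL2 (0.18, adjusted p = 0.00703) and CASC3 (0.11, adjusted p = 0.0163) were also higher with pyridostatin. CASC3 was higher (0.09, adjusted p = 0.0304) and GMDS lower (−0.17, adjusted p = 0.0257) between genotypes, and these 2 calls were lost in 9 and in 8 of 20 alternatives.

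The interferon genes were set beside PARP9, PARP10, PARP12 and PARP14 and did not all move one way. Of 16 genes in the list 10 were tested, and over both treatments 3 were higher and 1 lower in PARP3-/- cells, against 19.1% of all genes called. The median log2 fold change was 0.12 over the 10 and 0.01 over all genes. Among the 10, only OAS1 and IFI6 (−0.05, adjusted p = 0.789 from limma) had a negative fold change. OAS1, an antiviral synthetase, fell by 0.29 (adjusted p = 0.000334 from limma), from 37.3 ± 2.78 to 30.6 ± 1.10 FPKM with vehicle and from 37.3 ± 1.84 to 29.96 ± 0.402 FPKM with pyridostatin (SD, n = 3 each). UBE2L6, which conjugates ISG15, was higher by 0.35 (adjusted p = 0.00215), and so were IRF1 (0.17, adjusted p = 0.00920) and STAT2 (0.16, adjusted p = 0.0496). The call of STAT2 was lost in 15 of 19 alternatives. For pyridostatin 0 of the 10 genes were called in either genotype, against 4.17% of all genes in wild-type and 5.56% in PARP3-/- cells.

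**Figure D4:**
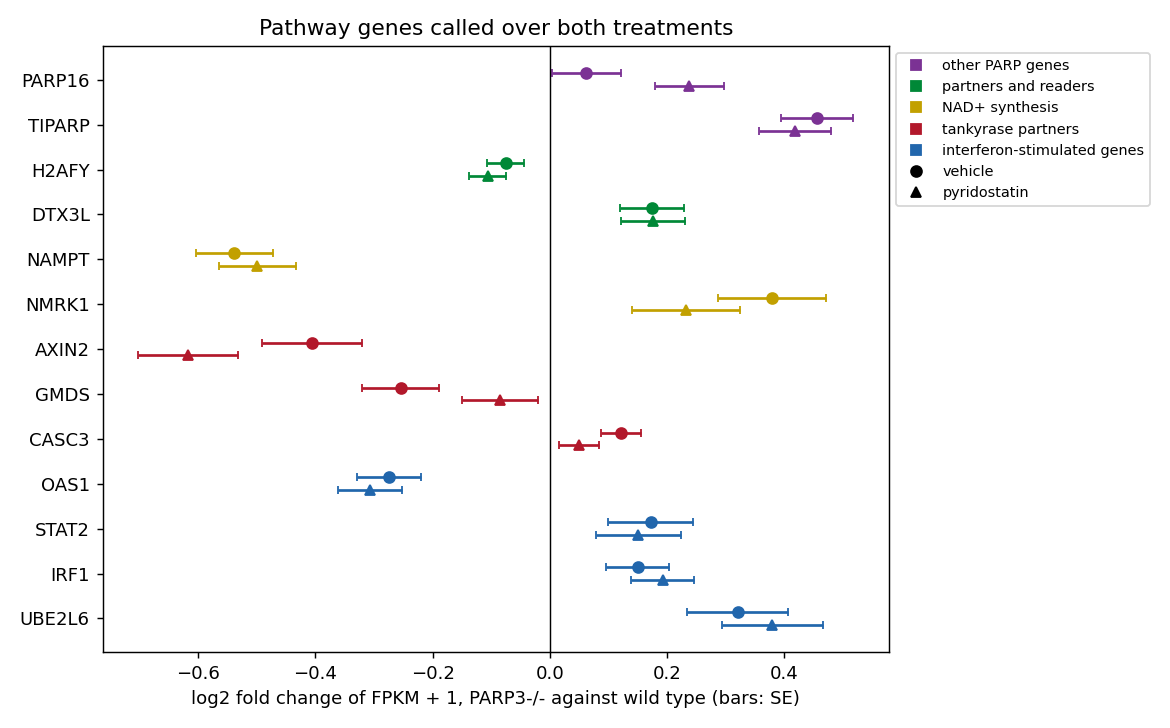
Log2 fold changes of FPKM + 1 between PARP3-/- and wild type, with standard errors as bars, for the pathway genes called over both treatments, with circles for vehicle and triangles for pyridostatin and one colour per list. TIPARP lies right of 0.4 and NAMPT left of −0.4 in both treatments, and the interferon genes lie on both sides of 0.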

How the data were processed

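RNA-seq libraries of 12 A549 cultures (stranded mRNA, single-end 75-base reads) were grouped by genotype and treatment from the labels, with 3 biological replicates per group. The authors deposited one table of FPKM values, named for Cufflinks, with 1 column per library and no pooling, and the submitters' processing notes also name bcl2fastq 2.16, STAR 2.5 and the builds hg19 and mm9. The annotation and strand setting are not given in the sources used here. The authors tested counts with DESeq2, and counts were not used here, so the depths given are estimates from 60 to 74 low genes per library and transcript lengths of GENCODE release 29.

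Values were taken as log2(FPKM + 1), genes averaging under 1 FPKM were dropped, and limma 3.58.1 (R 4.3.3, eBayes with trend) fitted the 4 groups and 7 contrasts with no block. Benjamini-Hochberg adjustment ran over all 11881 genes. The procedure was tested on simulated data. PARP3 and PARP10 were also compared by exact permutation of mean FPKM. Promoter windows came from RefSeq on GRCh38.p14, and only names and overlaps, no coordinates, were carried to the FPKM table. Python 3.11.15 with pandas 2.3.3, scipy 1.17.1 and matplotlib 3.10.9 was used.

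The members and lists were chosen with earlier results of these data known. All members were named, and of the other lists genes with an adjusted p under 0.05, at most 4 per list and contrast, with the 5 genes most like PARP3. GRINA, SPATC1 and PLEC beside PARP10 and other markers and genes at or near 0 were named after their values were seen. A gene of the interferon list is not reported here. HPF1 was found under its older symbol, C4orf27. Alternatives were a pseudocount of 0.1, a filter at 5 FPKM or none, equal library medians, quantile normalization, separate fits of each comparison, no eBayes trend, a replicate block, and each library left out in turn. The permutation tests of PARP10 and the fit with neither filter nor a pseudocount of 1 (0.1 instead) were added after the data were seen.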

Additional observations from a re-analysis of the deposited data

How the results depend on the processing

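The 27 reported comparisons of PARP1, PARP2, PARP3, PARP12 and PARP14 were refitted 555 times. Of these refits 518 kept the direction and the side of the threshold, 21 lost a call, 13 gained one and 3 changed sign, all of the last for PARP1 with pyridostatin in wild-type cells (0.028 with quantile normalization, and between −0.044 and 0.011 with 1 library left out, 0.0030 without wild-type vehicle replicate 1 and 0.011 without wild-type pyridostatin replicate 1). PARP4, PARP9, TNKS and TNKS2 were called in 0 of 569 refits and changed sign in 40. The 42 called comparisons of the other lists kept their direction in 852 refits and lost the call in 185. Members called with vehicle rose from 0 to 1 with a pseudocount of 0.1 and without the eBayes trend (PARP12), and with no filter at either pseudocount (PARP10). With pyridostatin they rose from 0 to 1 with no filter at either pseudocount. Those called for pyridostatin in PARP3-/- cells fell from 1 to 0 with quantile normalization, those for genotype over both treatments from 2 to 1 with a mean of at least 5 FPKM, which removes PARP3, and rose to 3 with no filter at either pseudocount (PARP10), and those for pyridostatin over both genotypes from 1 to 0 with a pseudocount of 0.1, quantile normalization or no trend. With 1 library left out they ran from 0 to 1 with vehicle, 0 to 2 with pyridostatin, 0 to 1 for pyridostatin in PARP3-/- cells, 2 to 2 for genotype over both treatments and 0 to 2 for pyridostatin over both genotypes. Left-out libraries moved the PARP3 difference over both treatments between 0.612 and 0.824 FPKM and that of PARP10 between 0.390 and 0.437 FPKM.

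Correlations across genes between the deviations of same-numbered libraries ran from −0.120 to 0.216. Differently numbered libraries were not set beside them, so these values cannot decide whether the numbers pair the samples. The replicate block raised the members called from 0 to 1 (PARP12) with vehicle and with pyridostatin, and for pyridostatin over both genotypes it lost PARP1 (adjusted p = 0.0615) and gained PARP12 (0.0492).

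Across all genes, fitting only the libraries of a comparison gave 532 calls with vehicle, against 1118, and 65 with pyridostatin in wild type, against 495, but 1623 between genotypes with pyridostatin, against 1297, and 881 with pyridostatin in PARP3-/- cells, against 661. Without wild-type vehicle replicate 2 the genes called for pyridostatin in PARP3-/- cells rose from 661 to 1559, and without PARP3-/- pyridostatin replicate 3 they fell to 254. At this depth PARP10 rests on approximately 17 to 68 reads, so its ratio is less precise than that of the other members. These reads were estimated from FPKM, transcript length and estimated depth and were not counted.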

Other observations

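Some genes of the lists lay below the filter and differed in level between the genotypes without overlap. They were chosen after their values were seen and were not tested. The share of all genes below the filter that separated in this way was not counted. Among tested genes, 24.2% did not overlap between the genotypes with vehicle and 35.2% with pyridostatin. For pyridostatin against vehicle these shares were 23.1% in wild-type and 32.3% in PARP3-/- cells. AMOT, a tankyrase partner of the motin family that acts in Hippo signalling, had means of 0.341 and 0.0318 FPKM with vehicle and 0.380 and 0.0425 FPKM with pyridostatin in wild-type and PARP3-/- cells. ADPRH, which removes ADP-ribose from arginine, had means of 0.622 and 0.402 FPKM with vehicle and 0.770 and 0.468 FPKM with pyridostatin. NMNAT2, of the NAD+ synthesis list, was higher in PARP3-/- libraries. Its means were 0.717 and 0.965 FPKM with vehicle and 0.831 and 1.02 FPKM with pyridostatin. PARP8, a PARP gene outside the 10 members, had means of 0.482 and 0.620 FPKM with vehicle and 0.642 and 0.819 FPKM with pyridostatin, so that it was higher in PARP3-/- than in wild-type libraries and higher with pyridostatin than with vehicle, each time without overlap.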
